A study of Mus musculus with 22 samples.

Results

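The serotonin receptor family was examined in total RNA from the right brain hemisphere of dominant and submissive mice. The members were the 10 genes Htr1a, Htr1b, Htr1f, Htr2a, Htr2c, Htr3a, Htr4, Htr5a, Htr6 and Htr7, taken by symbol from both count tables, which list 24421 genes each. All mice were of the inbred strain C57B6/J OlaHsd in the spelling of the labels (C57BL/6JOlaHsd in the study's methods), with no altered allele or treatment named in the labels, housed 4 per cage and aged 10 to 12 weeks when the tube test set their ranks, a contest in a narrow tube that is lost by the mouse pushed backwards. The 22 samples were 7 dominant males, 7 submissive males, 4 dominant females and 4 submissive females. The hemispheres were taken 3 to 4 days after ranking. Each replicate number joins the dominant and the submissive mouse of 1 cage by the library names, except that female replicates 3 and 4 carry group names in place of cage numbers. The study's methods describe a second round of ranking for females of middle rank in newly formed groups, without naming the sequenced mice among them.

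Serotonin is made by neurons of the brainstem raphe nuclei, whose fibres reach nearly the whole brain, and its effect on a target cell depends on the receptors that the cell carries. The products of the Htr1 and Htr5 genes couple to inhibitory G proteins that lower cyclic AMP and open potassium channels. Those of the Htr2 genes couple to Gq and release calcium from internal stores, whereas the products of Htr4, Htr6 and Htr7 couple to Gs and raise cyclic AMP. The product of Htr3a is different in kind, since it is a subunit of a cation channel that serotonin opens directly. Several of the inhibitory receptors, Htr1a on raphe cell bodies and Htr1b on axon terminals, also act as autoreceptors that limit serotonin release.

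Between 12403943 and 16488762 reads per sample were counted on genes (median 14948109). Neuronal, astrocyte, oligodendrocyte and microglial markers were present in every group. In dominant male 1 the summed level of 5 cerebellar markers was 18.8 CPM, while it was 190 to 426 CPM in the other samples, so the levels, tests and correlations that use this mouse were also computed without it. CPM here are read counts divided by the library size after TMM scaling in edgeR. No pair of samples within a group had counts that agreed within sampling noise. The male libraries of replicates 1 to 4 and those of replicates 5 to 7 stood apart. Between submissive males the mean chi-square per gene was 1.87 to 4.32 within these sets and 5.41 to 9.63 across them, and between dominant males other than replicate 1 it was 2.09 to 6.15 within them. With replicate 1 included, dominant males had 2.09 to 9.56 within the sets and 7.32 to 16.6 across them, so that these ranges overlapped. No receptor separated the sets, while 8.48% of 15233 genes had ranges without overlap between them. The split was seen in the counts and is named by no label, so the tests that use males were also run within each set.

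The start regions of the receptors that differed between the tables are shown first, because the comparison of the tables is the one in which receptors passed the test. Of the 10 members 8 were matched to a RefSeq promoter entry (GRCm38.p6), among them Htr1b, Htr2c and Htr5a of these 5 genes. Htr3a had no match, and entries on the chromosome of Htr4 were not used, so Htr4 was not searched. The 250 bases before the annotated start are printed 5′ to 3′ on the strand of the gene, at chr9:81633833-81634082 (minus strand) for Htr1b, chrX:146962263-146962512 (plus strand) for Htr2c and chr5:27841697-27841946 (plus strand) for Htr5a. The Htr1b start lies outside the counted bases of the gene. Capitals mark GGTCA or its reverse complement TGACC, the core letters bound by many nuclear receptors.
Htr1b: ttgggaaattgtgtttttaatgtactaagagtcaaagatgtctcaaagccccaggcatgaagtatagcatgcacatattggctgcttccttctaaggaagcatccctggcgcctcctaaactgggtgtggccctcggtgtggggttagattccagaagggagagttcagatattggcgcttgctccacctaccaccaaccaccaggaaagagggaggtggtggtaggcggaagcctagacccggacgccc
Htr2c: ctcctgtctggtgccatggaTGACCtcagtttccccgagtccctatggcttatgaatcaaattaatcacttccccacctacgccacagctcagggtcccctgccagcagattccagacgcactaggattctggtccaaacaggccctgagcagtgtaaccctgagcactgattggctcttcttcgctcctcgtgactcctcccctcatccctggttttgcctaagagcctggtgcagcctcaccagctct
Htr5a: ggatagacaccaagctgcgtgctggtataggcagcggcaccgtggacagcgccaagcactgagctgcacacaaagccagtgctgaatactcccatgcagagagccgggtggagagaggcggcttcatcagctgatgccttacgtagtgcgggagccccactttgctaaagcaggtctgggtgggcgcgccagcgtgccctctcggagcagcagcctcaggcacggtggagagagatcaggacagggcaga
Of these 3 regions only that of Htr2c held these letters, and 35.2% of 32851 promoters of the same length held them on either strand. The start regions of Htr6, not printed here, held them as well. Neither a TATA box (TATAAA, in 12.4% of promoters) nor a GC box (GGGCGG, in 32.7%) was found in the 3 regions, with both strands searched. The GC content of the 3 regions was 52.4%, 55.6% and 62% in the same order. The matches describe these letters only.

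The genes lie on separate parts of the mm10 genome and differ in how much of them was counted. Htr1b (chr9:81631392-81632552) and Htr1a (chr13:105443693-105448133) are genes of a single exon, while Htr1f (chr16:64924729-65105784) has 3. Htr2a (chr14:74640840-74706859) and Htr2c (chrX:146962513-147197277) have 3 and 6 exons. Htr3a (chr9:48899213-48911099) has 9 exons, Htr4 on chromosome 18 has 7, Htr5a (chr5:27841947-27855086) has 2, and Htr6 (chr4:139061409-139074789) and Htr7 (chr19:35958729-36057360) have 3 each. For Htr1b the authors' annotation counts 1161 bases, nearly all of them coding, although the GENCODE exons of the gene cover 4724 bases. Of the counted bases, 473 are shared with D430036J16Rik on the opposite strand, and the strand setting of the counting is not given in the sources used here. No other member shared counted bases with a gene of the table.

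Per kilobase of counted exon, the Gq-coupled receptors led the family. Htr2c, best known from the choroid plexus and from neurons of the basal ganglia and cortex, had the highest level at 16.7 ± 1.2 CPM per kb (SD, n = 22). Htr2a, the cortical receptor on which psychedelic drugs act, followed with 10.8 ± 0.836 CPM per kb. Both lay above every other member in all 22 samples, and their ranges did not overlap. Together they made up 50.7% of the summed mean level of the 10 genes. The median over all genes that passed the expression filter was 8.42 CPM per kb, so that the remaining 8 receptors were below the typical gene.

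Below them came 7 receptors of which no neighbours were separated by their spread. Htr7, a Gs-coupled receptor of thalamus and hypothalamus, had 5.32 ± 0.467 CPM per kb. Htr1a had 5.08 ± 0.491 and Htr5a, an inhibitory receptor, 4.66 ± 0.431 CPM per kb. Htr7 was above Htr1a in 15 of 22 samples and Htr1a above Htr5a in 16, with overlapping ranges. Htr1b came next with 3.39 ± 0.98 CPM per kb and had the widest range of this group, 1.81 to 5.64. Htr1f (2.6 ± 0.332), Htr3a (2.59 ± 0.494) and Htr4 (2.50 ± 0.327 CPM per kb) were alike in level, and Htr1f exceeded Htr3a in 12 of 22 samples. The place of Htr1b differed between the tables. Its mean of 4.43 CPM per kb in females was above that of Htr5a (4.26), and its mean of 2.79 in males was below that of Htr3a (2.80). Without dominant male 1 the 10 genes kept their order over all samples.

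Htr6, a Gs-coupled receptor of striatal neurons, was the lowest member in every sample. Its mean was 0.587 ± 0.225 CPM per kb, which came from 5 to 25 counted reads per sample. Htr2c exceeded it 28.3-fold in males and 28.6-fold in females. Of the receptor genes outside the 10 members, Htr1d and Htr5b were detected at 2.6 ± 0.53 and 2.12 ± 0.610 CPM. Htr2b and Htr3b had at most 3 counts in any sample and did not pass the filter on low counts. The plot of levels per kilobase shows these steps.

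**Figure D1:**
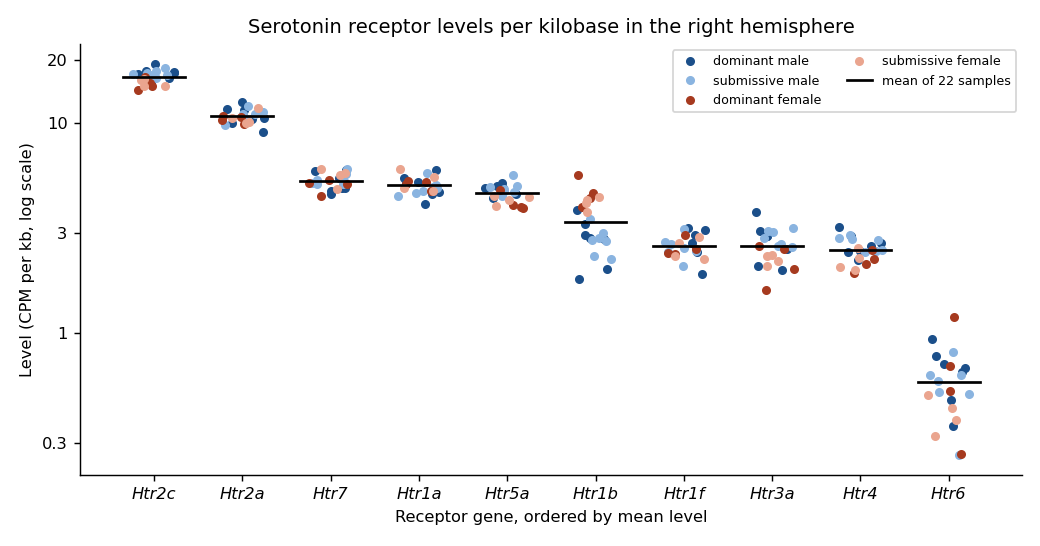
Level of each receptor in CPM per kilobase of counted exon (log axis) for 22 mice, coloured by group, with the mean as a bar. Htr2c and Htr2a stand clear of the rest in all mice, 7 receptors lie close together between 1.6 and 6.08, and Htr6 is at 1.2 or lower.

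Pooled over the 4 groups, the coefficient of variation between mice was above that of counting alone for all 10 genes, which is a description without a test. In 8 of the 40 combinations of gene and group it was below it, as for Htr1b in submissive females (7.09% against 11.4%). For Htr2c the pooled value was 5.21%, while counting alone gave 2.93% at a mean of 1166 reads. For Htr1b it was 16.7% with 13% from counting at 58.9 reads, and for Htr6 it was 37.5% with 29.2% from counting at 11.7 reads. The summed level of the 10 genes was 54.9 ± 4.44 CPM per kb in dominant males (53.6 ± 3.14 without dominant male 1), 55.1 ± 1.57 in submissive males, 52.6 ± 1.27 in dominant females and 53.1 ± 2.03 in submissive females.

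In males, no receptor passed edgeR's quasi-likelihood test of dominant against submissive mice (0 of 10 at an adjusted p under 0.05, and 0 of 10 at an unadjusted p under 0.05). Among all 14737 genes tested the share called was 0.0%, with 194 genes (1.32%) at an unadjusted p under 0.05. DESeq2 also called 0 of 10, with 0 at an unadjusted p under 0.05. The ranges of dominant and submissive males overlapped for all 10 receptors, and ranges without overlap were found for 0.0131% of 15233 genes.

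Htr2c gave the narrowest bounds in males. Htr2c ran from 74.7 CPM through a median of 82.5 to 91.5 in the 7 dominant males, and from 78.0 through 81.9 to 87.3 in the 7 submissive males. The ranges overlapped almost entirely. The log2 fold change, dominant over submissive, was 0.00 (95% interval -0.09 to 0.09), so that a difference beyond a 0.942- to 1.07-fold change lies outside the interval. Htr2a, with 26.9 to 37.4 CPM (median 31.5) in dominant males and 29.1 to 35.8 (median 33.0) in submissive males, had a log2 fold change of -0.02 (-0.16 to 0.11).

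For the inhibitory receptors of males the estimates were likewise close to 0. Htr1a had a median of 23.2 CPM (18.3 to 26.6) in dominant and 21.7 CPM (20.1 to 25.8) in submissive males. Htr5a was close as well, with a log2 fold change of -0.02 (-0.13 to 0.09). The fold changes of Htr1b (0.01, -0.30 to 0.33) and Htr1f (0.06, -0.17 to 0.28) had wider intervals, with mean counts of 45.3 and 93.6 reads in dominant males. In no case did the ranks separate.

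The channel subunit and the Gs-coupled receptors of males had estimates of either small size or wide interval. Htr3a, which in cortex marks a class of interneurons, had a log2 fold change of -0.05 (-0.30 to 0.21), Htr4 of -0.02 (-0.18 to 0.14) and Htr7 of -0.05 (-0.19 to 0.09). Htr6 had the largest estimate and the widest interval, 0.21 (-0.28 to 0.69). Without dominant male 1 the estimates of the 10 receptors ran from -0.14 for Htr3a to 0.10 for Htr6, with -0.02 for Htr2c and -0.07 for Htr4, and again 0 of 10 receptors were called. Within cages 1 to 4 and within cages 5 to 7, 0 of 10 were called as well, with opposite signs in the sets, in this order, for Htr1a (-0.08 and 0.16), Htr1b (0.15 and -0.18), Htr4 (0.04 and -0.10), Htr5a (-0.06 and 0.04) and Htr6 (0.38 and -0.03), and also for Htr2a, Htr2c and Htr3a. Htr1a in cages 5 to 7 had an unadjusted p under 0.05 (adjusted p 1.00, edgeR). The difference between the sets was not tested.

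**Figure D2:**
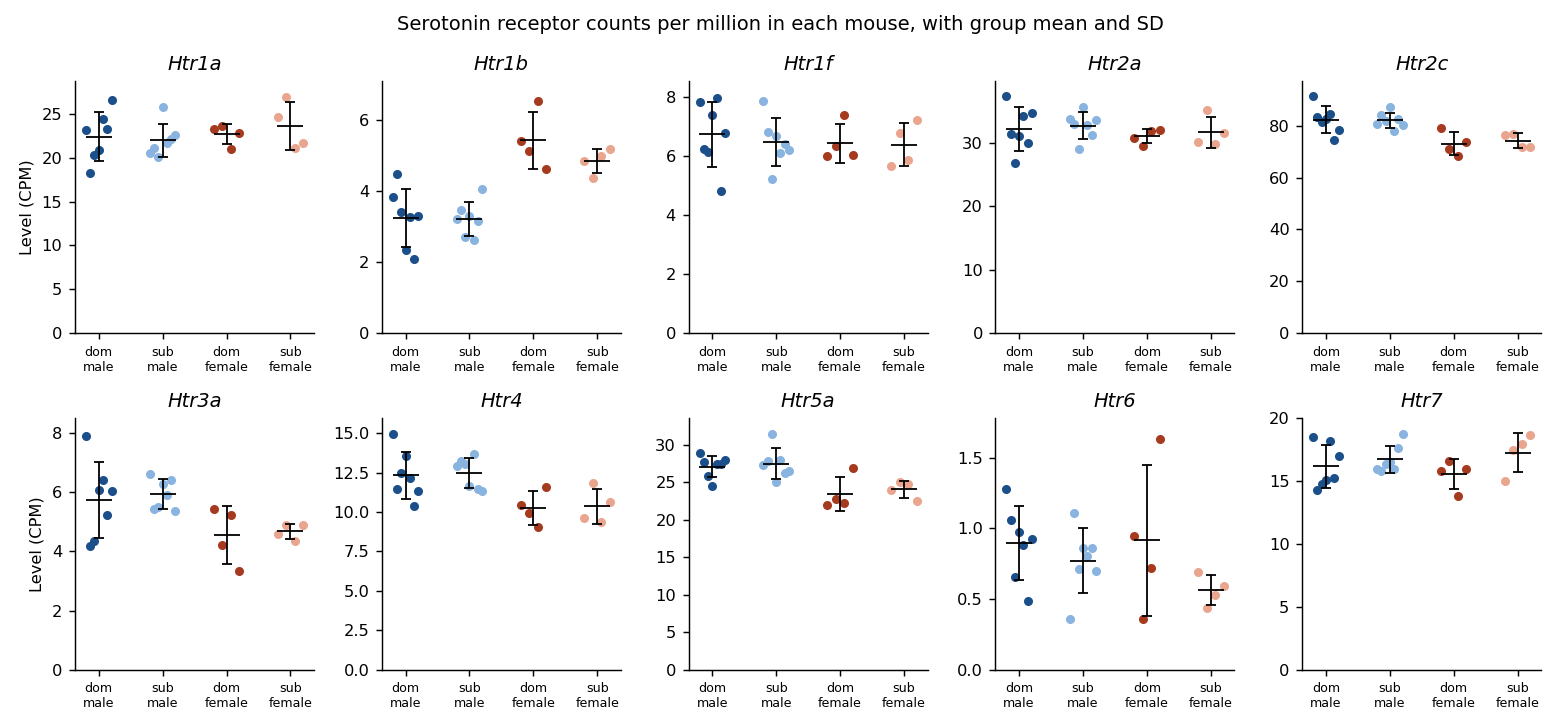
Level (CPM) of each receptor in every mouse (points) of the 4 groups, with the group mean and SD as a bar; dom is dominant and sub submissive. The ranks overlap within each sex for all 10 genes, and Htr1b is higher in females than in males while Htr2c, Htr4 and Htr5a are lower.

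In females, 0 of 10 receptors were called by edgeR's quasi-likelihood test and 0 had an unadjusted p under 0.05, in a comparison where 0.0942% of 14865 genes were called and 10.5% had an unadjusted p under 0.05. DESeq2 called 0, with 0 at an unadjusted p under 0.05, but gave an adjusted p for only 1 of the 10 because of its filter on low means. Dominant and submissive females overlapped for every member, while 5.41% of 15233 genes had ranges without overlap. Across all tested genes the median size of the log2 fold change was 0.06, and across the members it was 0.04.

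Htr7 came nearest to the threshold in females. Its values, in the order of replicates 1 to 4 as for all females, were 15.8, 16.6, 13.8 and 15.9 CPM in dominant females and 15, 17.5, 17.9 and 18.6 CPM in submissive females. The dominant mouse was lower in 3 of 4 cage pairs, while the ranges of the groups overlapped. The log2 fold change was -0.16 (95% interval -0.32 to 0.01), with an adjusted p of 0.514 in edgeR, and it ran from -0.22 to -0.10 when 1 female was left out. In males the dominant mouse was the lower one in 5 of 7 pairs, with differences in log2 CPM from -0.21 to 0.21.

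Htr6 had the largest rank estimate of the family and the weakest support in reads. Dominant females had 0.946, 0.362, 0.720 and 1.64 CPM, from 15, 6, 11 and 25 reads. Submissive females had 0.693, 0.438, 0.526 and 0.596 CPM, from 11, 7, 8 and 10 reads. The highest value was dominant female 4, and the lowest was also a dominant mouse. The log2 fold change was 0.67 (-0.11 to 1.45), with an adjusted p of 0.563 in edgeR, and it was 0.24 without dominant female 4. The coefficient of variation in dominant females was 58.6%, while counting alone gave 26.5%.

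The other 8 receptors of females had narrower intervals than Htr6. Htr2c had 79.3, 71.3, 68.4 and 73.8 CPM in dominant and 76.5, 76.9, 71.8 and 71.8 CPM in submissive females. Its log2 fold change was -0.03 (-0.12 to 0.07). Htr2a had an estimate of -0.03 (-0.16 to 0.09), Htr1a of -0.06 (-0.22 to 0.09) and Htr5a of -0.04 (-0.18 to 0.10), none past the threshold. Htr1b, with 5.42, 5.13, 6.55 and 4.64 CPM in dominant females and 4.85, 4.38, 5.00 and 5.19 CPM in submissive ones, showed an estimate of 0.15 (-0.11 to 0.41), and 0.06 without dominant female 3. Htr1f (0.00), Htr3a (-0.05) and Htr4 (-0.02) had estimates close to 0.

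Receptor levels can be set beside the genes that supply serotonin. Of 10 supply genes, 8 passed the filter in females, and 2 of them were called lower in dominant females. They were Tph2, the enzyme of serotonin synthesis in raphe neurons, and Slc6a4, the serotonin transporter. Tph2 was 1.90 to 7.69 CPM in dominant against 5.84 to 20.6 CPM in submissive females. Its log2 fold change was -1.77, with an adjusted p of 0.0418. Slc6a4 was 0.328 to 2.77 CPM in dominant and 3.52 to 6.97 CPM in submissive females, without overlap, with a log2 fold change of -1.77 and an adjusted p of 0.0418. All 8 supply genes had a negative estimate, with a median of -0.31. With each sample's trend on exon length removed, or without submissive female 1 or submissive female 3, 0 of all genes were called. Both genes are also markers of raphe neurons. The summed level of 4 such markers was 10.4 to 24.7 CPM in dominant females and 25 to 47.9 CPM in submissive females, and in a bulk sample fewer cells of a type and less RNA per cell cannot be told apart. Fev, a defining factor of raphe neurons, had at most 2 counts in any sample. Tph2 was also called between the female groups of origin (adjusted p 0.0401, edgeR). Of the markers of choroid plexus, ependyma and hypothalamus 0 were called in females by edgeR. All 8 choroid plexus markers (median log2 fold change -0.28), all 4 of ependyma (-0.42) and all 5 of hypothalamus (-0.34) had negative estimates, and 6, 3 and 2 of them had an unadjusted p under 0.05. The 3 olfactory bulb markers tested were negative too (-0.20, 1 under this limit). All 6 hippocampal (0.08) and all 6 striatal markers (0.07) were positive, with 3 and 0 under it, as was the blood marker Alas2 (0.65, under it). The other lists tested had estimates of both signs. Their part in the result was not tested. In males, 0 of 8 supply genes were called between the ranks by edgeR. Between the 7 male cages 2 of 8 were called, Slc6a4 (adjusted p 0.00657) and Tph2 (adjusted p 0.0328, edgeR), beside 5.89% of 14737 genes. Within cages 1 to 4 and within cages 5 to 7, 2 and 0 of all genes were called. Cage means of Slc6a4 were lowest in cage 4 (2.07 CPM) and highest in cage 7 (11 CPM), and those of Tph2 were 5.53 and 21.1 CPM in the same cages.

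Genes that act downstream of the receptors were not called in the rank comparisons either. Of 23 genes for G proteins, adenylyl cyclases, phospholipases, potassium channels and protein kinase A, 0 were called in either sex. In females 8 of 23 had an unadjusted p under 0.05, beside 10.5% of all genes. In males 0 of 23 had one, beside 1.32% of all genes. The median log2 fold change was 0.05 in females and 0.00 in males. Among 8 receptor partners, such as the scaffolds Mpdz and Dlg4 and the G protein regulator Rgs4, 0 were called in either sex. Rgs4 had the smallest p in females, with a log2 fold change of 0.12 and an adjusted p of 0.193.

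**Figure D3:**
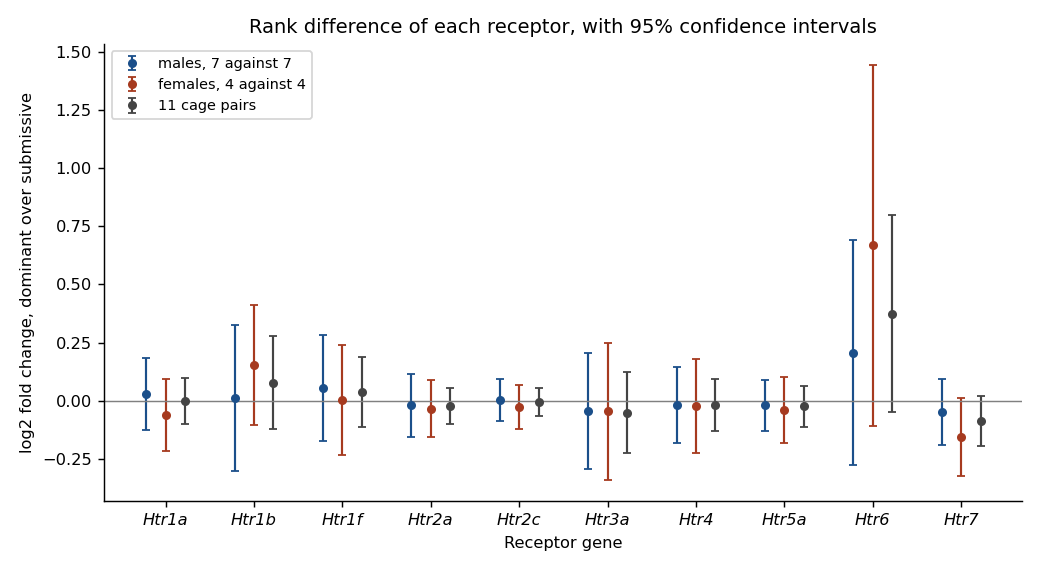
Log2 fold change of dominant over submissive mice for each receptor in males, females and over the 11 cage pairs, with 95% confidence intervals from the edgeR fits. Every interval includes 0, the narrowest belong to Htr2c, and the widest to Htr6 in females.

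Over the 11 cage pairs, with the pair as a term of the fit, 0 of 10 receptors were called by edgeR (0 at an unadjusted p under 0.05), where 0.0% of 15233 genes were called and 2.78% had an unadjusted p under 0.05. DESeq2 called 0, with 0 at an unadjusted p under 0.05. These pairs are made of the same mice as the tests above. Htr6 had an estimate of 0.37 (-0.05 to 0.80) and Htr7 of -0.09 (-0.19 to 0.02), with unadjusted p of 0.0795 and 0.103. Without the pair of dominant female 4 the estimate of Htr6 was 0.23. Htr2c was bounded most closely, at -0.01 (-0.07 to 0.06). Without the pair of dominant male 1, 0 of 10 were called over the pairs. In the test that follows, of a difference in rank effect between the sexes, 0 of 10 were called without it as well.

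The direction within pairs varied for every receptor. The dominant male was higher for Htr1a in 5 of 7 pairs, for Htr1b, Htr1f and Htr6 in 4, for Htr2a, Htr3a and Htr5a in 3, and for Htr2c, Htr4 and Htr7 in 2. The dominant female was higher for Htr1b, Htr2a and Htr6 in 3 of 4 pairs, for Htr1f, Htr2c, Htr3a and Htr4 in 2, and for Htr1a, Htr5a and Htr7 in 1. No receptor had pairs that all pointed one way. No receptor passed the test of a difference in rank effect between females and males (0 of 10 called by edgeR's test of the interaction, 0 at an unadjusted p under 0.05, and 0 by DESeq2), in a test that called 0.0% of 15233 genes. Its widest estimate was 0.47 for Htr6 (-0.45 to 1.39), which was 0.07 without the pair of dominant female 4. With the males of either set alone 0 of 10 were called in this test.

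**Figure D4:**
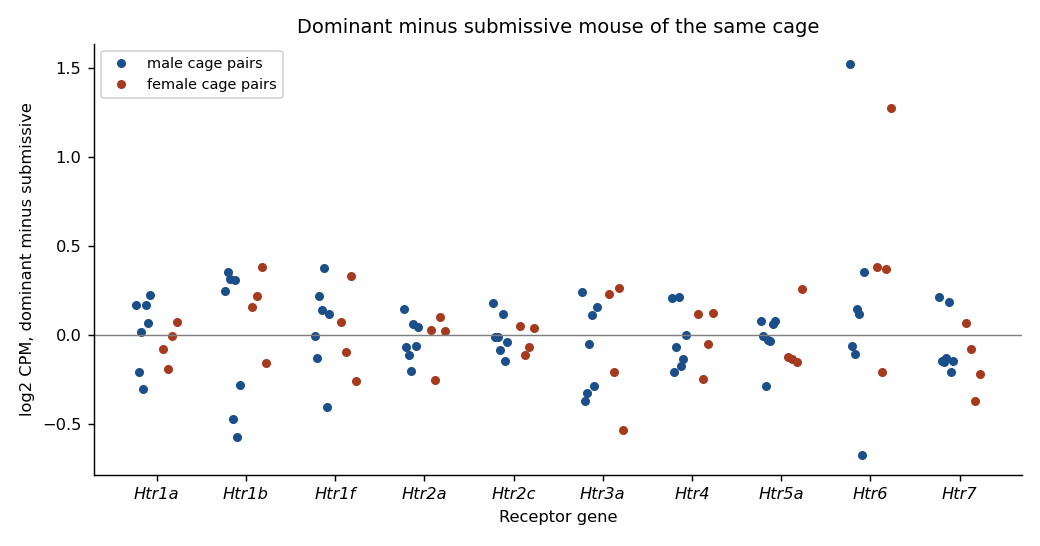
Difference in log2 CPM (prior count 2) between the dominant and the submissive mouse of each cage, for 7 male and 4 female pairs. For each receptor the pairs fall on both sides of 0, and the differences of Htr6 reach 1.52 in males and 1.28 in females.

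Cages, numbered here by replicate, were compared next. Among males, with rank as a term, 0 of 10 receptors were called by the edgeR test over 7 cages, while 5.89% of 14737 genes were called. Within cages 1 to 4 and within cages 5 to 7, 0 of 10 receptors were called, and of all genes 2 and 0, with 453 and 673 at an unadjusted p under 0.05. Htr2a and Htr3a were under this limit within cages 1 to 4, and 0 of 10 receptors within cages 5 to 7. Over all 7 cages Htr2a was the only receptor with an unadjusted p under 0.05 (adjusted p 0.167, edgeR), with cage means between 28.0 CPM in cage 3 and 35.6 CPM in cage 1. Htr3a followed with cage means of 4.80 CPM in cage 2 and 7.26 CPM in cage 1. Cage 1 holds dominant male 1, and it had the highest mean for Htr1f, Htr2a, Htr2c, Htr3a and Htr4. Without this cage 0 of 10 were again called. DESeq2 gave an adjusted p for 5 receptors, of which it called 0, with 0 at an unadjusted p under 0.05.

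Among females, 0 of 10 receptors were called between the 4 groups of origin, where 0.074% of 14865 genes were called. Htr6 and Htr1a had an unadjusted p under 0.05 (adjusted p 0.942 and 0.956, edgeR), while DESeq2 had 0 of 10. Htr1a had its lowest mean in replicate 3, 21.1 CPM, and its highest in replicate 2, 25.3 CPM. For Htr6 the means were 0.4 CPM in replicate 2 and 1.12 CPM in replicate 4. Over all genes the share with an unadjusted p under 0.05 was 5.11%.

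Between females and males, 5 of 10 receptors passed the edgeR test, 1 higher and 4 lower in females. The share called among all 15233 genes was 36.2%, so a change of some size was common in this comparison. Sex, the count table and the prefix of the library names coincide, and they cannot be told apart. DESeq2 called 5 receptors too. The fit counts 22 mice as independent, although they are cage mates from 7 male and 4 female cages. With the counts of cage mates summed, so that each cage gave 1 value, 5 receptors were again called, 1 higher and 4 lower, with adjusted p from 0.000220 for Htr1b to 0.0218 for Htr3a in edgeR. Of all genes 4523 of 15827 were called in that fit. Against the males of cages 1 to 4 alone 5 receptors were called, beside 6966 of 15107 genes. Against those of cages 5 to 7 alone 4 were called, beside 4162 of 15189 genes, and Htr4 was not (-0.19, adjusted p 0.0681, edgeR). The median log2 fold change of the members was -0.10, and over all genes it was 0.00 with a median size of 0.11.

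Htr1b had the largest difference and the smallest p of the family. The 8 females had 4.38 to 6.55 CPM with a median of 5.06, and the 14 males had 2.10 to 4.48 with a median of 3.29. Of the females 7 lay above every male, and 13 of the males lay below every female. The log2 fold change of females over males was 0.66 ± 0.10 (SE), a 1.58-fold difference (95% interval 1.37 to 1.83), with an adjusted p of 1.49e-05 in edgeR. It was called within dominant mice (log2 fold change 0.73, adjusted p 0.00740) and within submissive mice (0.59, adjusted p 0.00158). Of all genes 2171 of 14949 were called within dominant mice and 3885 of 14988 within submissive mice. Without dominant male 1 it was 0.67.

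The gene on the opposite strand that overlaps Htr1b had nearly the same mean in both tables. D430036J16Rik had 5.18 ± 0.514 CPM in females (SD, n = 8) and 5.20 ± 0.568 CPM in males (SD, n = 14). The Htr1b values rest on 70 to 100 reads per female and 29 to 64 per male. In the level per kilobase, Htr2c was 6.21 times Htr1b in males and 3.50 times in females.

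The Gq-coupled Htr2c was lower in females by a small and narrow margin. It had 68.4 to 79.3 CPM (median 72.8) in females and 74.7 to 91.5 CPM (median 82.2) in males, and 11 males lay above every female. The log2 fold change was -0.16 ± 0.03 (SE), a fold of 0.896 (0.854 to 0.941), with an adjusted p of 0.000635 in edgeR. Of 8 choroid plexus markers 2 were called, both lower in females, beside 36.2% of all genes, and 5 of the 8 had a positive estimate. Their summed level was 707 to 1053 CPM in females and 499 to 1114 CPM in males, and their part in the result was not tested. Htr2a, the other member of the subfamily, did not pass the test, with a log2 fold change of -0.05 (-0.15 to 0.05).

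Htr5a was lower in females as well. Its levels were 22 to 26.9 CPM (median 23.4) in females and 24.6 to 31.5 CPM (median 27.4) in males, with 5 females below every male. The log2 fold change was -0.20 ± 0.04 (SE), with an adjusted p of 0.000825 in edgeR. The fold was 0.870 (0.817 to 0.927). Within dominant and within submissive mice it was also called, at adjusted p of 0.0420 and 0.0245. Of all genes 2171 of 14949 and 3885 of 14988 were called in these fits.

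The channel subunit Htr3a and the Gs-coupled Htr4 completed the group that was lower in females. Htr3a had 3.34 to 5.42 CPM (median 4.74) in females and 4.17 to 7.89 CPM (median 5.97) in males, a log2 fold change of -0.34 ± 0.10 (SE) with an adjusted p of 0.00933. Htr4, a receptor of striatum and hippocampus, had 9.04 to 11.8 CPM (median 10.2) in females and 10.4 to 14.9 CPM (median 12.3) in males, with a log2 fold change of -0.26 ± 0.06 (SE) and an adjusted p of 0.00223. No female reached the male median in either gene. Without dominant male 1 the same 5 receptors were called, with log2 fold changes of -0.16, -0.20, -0.30 and -0.25 for Htr2c, Htr5a, Htr3a and Htr4. Of all genes 5410 of 15230 were called without this mouse. In dominant mice alone, Htr2c, Htr3a and Htr4 kept estimates of -0.17, -0.34 and -0.27 but had adjusted p of 0.0513, 0.208 and 0.0833 in edgeR.

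**Figure D5:**
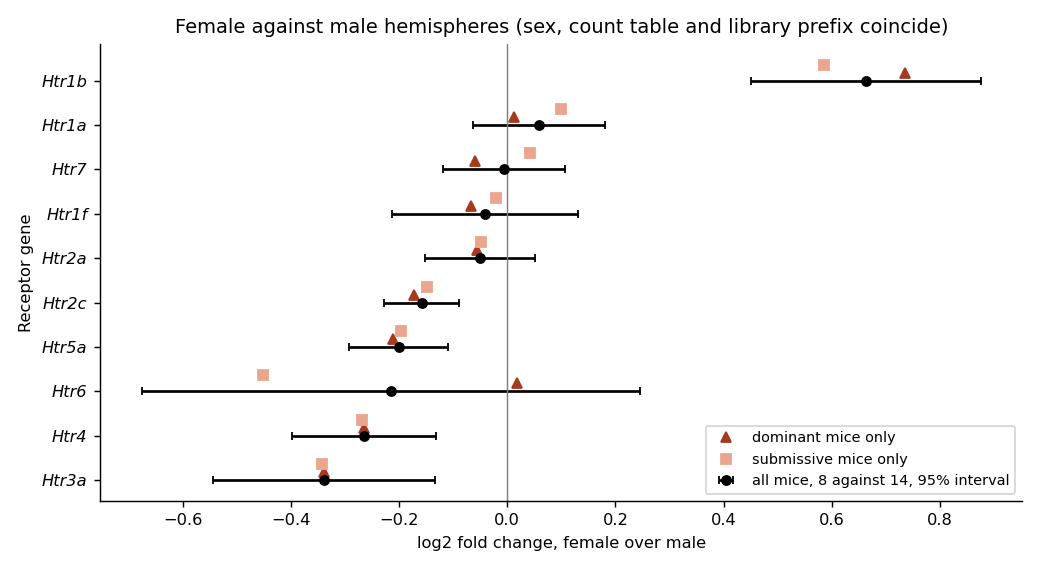
Log2 fold change of 8 female over 14 male hemispheres for each receptor (black, 95% interval), with the estimate in dominant mice only (triangle) and in submissive mice only (square). Htr1b lies to the right of 0, and Htr2c, Htr3a, Htr4 and Htr5a to the left with intervals that exclude 0.

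The other 5 receptors were not called between the sexes. Htr7 had a log2 fold change of -0.01 (-0.12 to 0.11), Htr1f of -0.04 (-0.21 to 0.13) and Htr1a of 0.06 (-0.06 to 0.18). Htr6, at 0.740 ± 0.405 CPM in females and 0.835 ± 0.244 CPM in males, had a log2 fold change of -0.21 (-0.67 to 0.25). Its estimate was 0.02 in dominant mice and -0.45 in submissive mice.

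Signalling genes and markers differed between the tables in both directions, in a comparison where 36.2% of 15233 genes were called. Of 23 signalling genes 14 were called, 8 higher and 6 lower in females. Prkaca, the catalytic subunit of protein kinase A, had the smallest p (log2 fold change 0.38, adjusted p 7.73e-09, edgeR), followed by Gnas (0.24) and Gnai1 (0.31), which encode stimulatory and inhibitory G protein subunits. Gnaq, which couples Htr2 receptors to phospholipase, was lower (-0.23). Of 8 partners 5 were called, with Mpdz lower (-0.30) and Dlg4 higher (0.25). Of 8 supply genes 3 were called, Slc18a2 (-0.41) and Slc6a4 (-1.03) lower and Maob (0.16) higher.

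The summed level of 5 neuronal markers moved with the same split. It was 4246 to 4524 CPM in females and 3526 to 4084 CPM in males, without overlap, and 2 of the 5 were called, both higher in females. Groups without overlap were found for 6.11% of 15233 genes in this comparison and for 0 of the 10 receptors. The share of these genes that was called, against which the marker counts here are to be read, was 36.2%. Markers of deep cortical layers went the other way, with 3 of 6 called, all lower in females, and 5 of 6 negative, among them Tle4 (-0.15, adjusted p 0.000155, edgeR). Of 6 markers of Vip, Cck and neurogliaform interneurons 2 were called, both lower in females, led by Adarb2 (-0.24, adjusted p 5.12e-05), while 3 of the 6 estimates were positive. Olfactory bulb markers were negative in 3 of 3 tested, with 1 called. Of 6 striatal markers 2 were called, both higher in females, with 3 of 6 estimates positive. Of 6 hippocampal markers 3 were called, 2 higher and 1 lower, and of 5 cerebellar markers 1 was called, higher, with all 5 positive. Glial and blood markers were called too, namely Csf1r (-0.25) lower and Cx3cr1 (0.35) higher among 3 of microglia, Mbp (-0.25) lower among 3 of oligodendrocytes, and the single blood marker tested, Alas2 (-0.74), lower. The part of these cell types in the receptor differences was not tested.

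Correlations within groups were taken among the receptors and with other genes. After removal of the mean of each group, the 45 pairs of members had correlations of log2 CPM from -0.30 to 0.62 (median 0.26), with 38 positive, over 22 samples that share their libraries and depth. The highest were between Htr1f and Htr2a (0.62) and between Htr1a and Htr2a (0.57). Without dominant male 1 the correlations ran from -0.49 to 0.59 (median 0.15), with 30 positive. With the deviations taken within the sets of male cages they ran from -0.34 to 0.67 (median 0.32). Among 12499 other genes with a mean count of at least 50, Htr2c was most like Slc7a14 (r = 0.90), Pcbp1 (0.87) and Tmod2 (0.86). Htr1a was most like Pcdh20 (0.86), Tpgs1 (0.85) and Galnt16 (0.82).

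For the remaining receptors the likeness was of a similar order. Htr2a went with Gm11549, Rai2 and Prkca (0.86, 0.86 and 0.85), and Htr1f with Rai2, Camkk2 and Rap1gds1 (0.75, 0.74 and 0.74). Htr3a varied with Wnt2, Slc5a5 and Fam198b (0.80, 0.80 and 0.79), and Htr4 with Ankrd42, Slc27a2 and Bhlhb9 (0.76, 0.71 and 0.71). Pola2, Ppm1f and Nipal4 were most like Htr5a (0.75, 0.70 and 0.64), Rnf165, 1700030J22Rik and Zfp827 were most like Htr6 (0.75, 0.74 and 0.73), and Nudc, Arhgef4 and Reep5 were most like Htr7 (0.79 each). These values are descriptions over the 22 samples. The genes were picked as the highest of all those compared in the same samples, so the size of r shows no relation by itself. The repeats that follow reuse these samples. Without dominant male 1, 17 of these 27 gene and receptor pairs were still among the first 3 of their receptor, and the 27 correlations lay between 0.63 and 0.87. Within the sets of male cages they lay between 0.63 and 0.89.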

How the data were processed

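Total RNA of the right hemisphere of 22 mice was sequenced as single-end reads of 85 nt after removal of ribosomal RNA. The authors used cutadapt 1.15 and bbduk for trimming, STAR 2.6.0a with mm10 for mapping and featureCounts 1.6.2 for counting, and deposited raw counts per gene in 1 table per sex. The counts were used as deposited, joined by symbol. Groups and replicate numbers came from the labels. Genes were kept by edgeR's filter (minimum count 10, minimum total count 15) and tested with the quasi-likelihood test of edgeR 4.0.16 in R 4.3.3, with TMM normalization, Benjamini-Hochberg adjustment over all genes and a threshold of 0.05. The rank tests within a sex had rank as the only term. Replicates are separate mice by their labels.

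CPM and CPM per kb use the exon length of the deposited tables. Log2 CPM had a prior count of 2. Coordinates came from GENCODE and RefSeq (GRCm38). The text names the 10 members, the other receptor genes, lists of supply, signalling and partner genes with the smallest p, and the 3 genes most correlated with each member, which for Htr1b are not reported here. Members and lists were chosen with earlier results of these data known. The replicate numbers pair mice because library names give them the same cage and the study states that both were killed together. Deviations from group means correlated across genes at 0.276 on average within male pairs (-0.0453 for other pairs) and at 0.0290 within female pairs (-0.00973). With means taken within the sets of male cages 1 to 4 and 5 to 7, the male value was -0.00823 (0.00572 for other pairs). Alternatives were DESeq2 1.42.0, its size factors, no filter, a mean count of at least 50, a replicate block, length and GC trends removed by loess (span 0.3), and each sample left out. GC trends, the comparison within each rank, the sum per cage, the fits within the sets of male cages, and levels and correlations without dominant male 1 were added after seeing the data. Intervals cover the spread between these mice at 12403943 to 16488762 counted reads.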

Additional observations from a re-analysis of the deposited data

Results flagged for a closer look

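Htr5a in dominant female 4 stood apart from the other dominant females, at 26.9 CPM against 22 to 22.8 CPM. It was the only one of 40 receptor and group combinations in which a sample lay beyond Dixon's limit, which chance passes in about 1 of 20 groups. Without this mouse the log2 fold change of Htr5a in dominant over submissive females was -0.11 (adjusted p 0.594, edgeR), and the effect of rank in females minus that in males was -0.12 without this pair. The same mouse had the highest Htr6 and the lowest Htr3a value of the dominant females.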

How the results depend on the processing

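In the rank and cage comparisons 0 receptors were called under the alternatives run, and no called receptor changed direction. Not all 10 were tested in each: DESeq2 gave an adjusted p for 1 receptor in females and 5 between male cages, a mean count of at least 50 left 8 receptors in males and 9 elsewhere, and 9 were tested between female cages without cage 1. Between females and males 5 receptors were called under 31 of 33 alternatives, 4 against males of cages 5 to 7 (without Htr4), and 2 (Htr1b and Htr5a) in dominant mice only, where 2171 of 14949 genes were called. Leaving out 1 mouse at a time left 5 called, with 4917 to 5773 called among all genes. The rank estimate of Htr6 in females lay between 0.24 and 0.94 and was 0.24 without dominant female 4. 

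The counts over all genes depended more on the processing, and the cause was not tested. In females the rank test called 14 genes, and 78 with DESeq2, 84 without a filter, 2 at a mean count of at least 50, 0 with the length trend removed, 25 with the GC trend removed, and 0 to 77 leaving out 1 mouse. Since the numbers pair the samples, the replicate block was fitted: it called 36 genes in females, 8 with the length trend and 43 with the GC trend removed, and changed no receptor call. Between male cages 868 genes were called, 536 with the length trend removed, 2 within cages 1 to 4, 0 within cages 5 to 7, and 375 to 1841 leaving out 1 cage (1841 without cage 1). Between female cages 11 were called, 5 with DESeq2, 99 without a filter, 4 without the rank term, and 2 to 31 leaving out 1 cage. Depth limits Htr6, with 5 to 25 reads, and Htr1b in males.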
